A study of Bos taurus with 9 samples.

Results

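A group of 7 genes in the deposited table carried reads in a single library each, always from a vitrified bovine blastocyst sample prepared without α-ketoglutarate (AKG): AKR1D1, HMGCLL1, CCK, MMP19, UPK3A, TMEM217 and ANKRD66. The table holds 47 genes in all. They were chosen by their counts, as genes with a symbol and with counts above 0 in exactly 1 of the 9 libraries, and by the view that such genes belong to differentiated tissues. The count criterion alone was also met by ANKRD22, FAM237B and INSL3, so the 7 are a choice among 10 genes. Because the counts of all 9 libraries made the choice, the values below are a description and no test was run on them.

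The 9 libraries were made from embryos labelled female, in 3 groups of 3. The groups were vitrified and warmed blastocysts with AKG (AKG-treated), vitrified and warmed blastocysts without AKG (AKG-free), and controls. Vitrification cools an embryo to a glass without ice, and AKG is an intermediate of the tricarboxylic acid cycle. Neither the labels nor the files state the dose and timing of AKG, the vitrification steps or how many embryos went into a library, and they do not tell whether replicates were independent batches of embryos. Per the labels' protocols, cDNA was made and amplified by a SMART-Seq v4 kit meant for very little RNA. The table names its 47 genes as differentially expressed without stating how they were picked, and genes outside it were not analysed here.

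A blastocyst consists of a trophectoderm, which forms the placenta, and an inner cell mass, from which the primitive endoderm and the fetus derive. Liver, bladder lining, gut endocrine cells and brain do not yet exist at this stage, and their specialised genes are usually silent or transcribed at a low level. Low-input methods copy and amplify the cDNA of very few cells. When a transcript is present in few copies, whether any copy is reverse transcribed can decide between no reads and many reads, and every molecule that is captured is multiplied by the amplification. Without molecular identifiers, reads do not count molecules, so a high read count may stand for few starting molecules, a count of 0 does not show that the embryo lacked the transcript, and neither value speaks to the protein. How far capture, amplification, RNA from another source or a difference between embryos played a part here was not tested.

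Of the 47 listed genes, 18 had counts in exactly 1 library, which is 38.3%, and the library was AKG-free each time. Among the 35 listed genes with a symbol the number was 10, which is 28.6%. The pattern of the 7 genes was therefore common in the table. It is also what chose them, so nothing is read from these shares. Counts were present in all 9 libraries for 19 genes and in 2 to 8 libraries for the remaining 10.

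**Figure D1:**
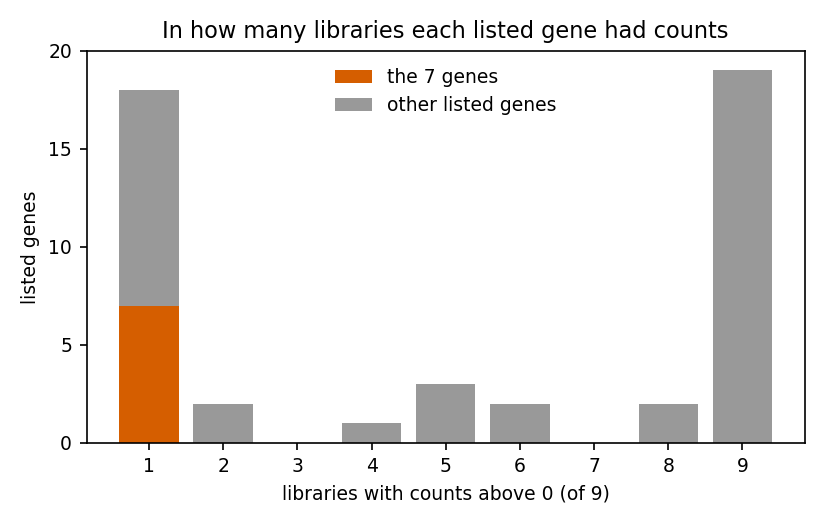
Number of listed genes (vertical axis) by the number of libraries, of 9, in which their count was above 0 (horizontal axis), with the 7 genes in colour. Most genes stood at either end, 18 with counts in 1 library and 19 with counts in all 9.

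The 7 genes were spread over all 3 AKG-free libraries. AKG-free library 1 held AKR1D1, library 2 held HMGCLL1 and TMEM217, and library 3 held CCK, MMP19, UPK3A and ANKRD66. No gene of the 7 was shared by any pair of libraries. The group means of AKG-free libraries therefore rest on 1 library for every gene, and each gene's groups overlapped at 0.

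AKR1D1, HMGCLL1 and CCK are metabolic or hormonal genes. AKR1D1 encodes the steroid 5β-reductase that the liver uses to make bile acids and to inactivate steroid hormones. It is ENSBTAG00000001658, at chr4:101778335-101828543 on the plus strand of the deposited annotation, which names no genome build. AKR1D1 had 0 counts in the 3 AKG-treated libraries, 158, 0 and 0 counts in AKG-free libraries 1, 2 and 3, and 0 counts in the 3 control libraries. The 158 counts corresponded to 2.35 FPKM (fragments mapped to the gene, corrected for its length in kilobases and for library depth). It ranked 18th by FPKM among the 25 listed genes with counts in that library. AKR1D1 was the only 1 of the 7 in AKG-free library 1.

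HMGCLL1 encodes a relative of the mitochondrial HMG-CoA lyase, the enzyme that forms the ketone body acetoacetate, and lies outside mitochondria; in humans it is best known from brain. It is ENSBTAG00000025718, at chr23:4789382-4986934 on the plus strand. HMGCLL1 had 0 counts in the 3 AKG-treated libraries, 0, 109 and 0 counts in AKG-free libraries 1, 2 and 3, and 0 counts in the 3 control libraries. Its 109 counts, the fewest of the 7 genes, gave 1.24 FPKM and rank 31 of the 36 listed genes with counts in that library.

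CCK encodes cholecystokinin, the peptide that endocrine cells of the small intestine release to empty the gall bladder and to stimulate the pancreas, and a neuropeptide of the brain. It is ENSBTAG00000013027, at chr22:14567356-14573955 on the minus strand. CCK had 0 counts in the 3 AKG-treated libraries, 0, 0 and 203 counts in AKG-free libraries 1, 2 and 3, and 0 counts in the 3 control libraries. This was 1.53 FPKM and rank 24 of the 30 listed genes with counts in AKG-free library 3.

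MMP19 and UPK3A encode an extracellular and a cell surface protein. MMP19 is a zinc-dependent protease of the matrix metalloproteinase family, which cuts proteins of the extracellular matrix. It is known from many tissues, so the name tissue-restricted suits it poorly. It is ENSBTAG00000009051, at chr5:57426768-57433048 on the plus strand. MMP19 had 0 counts in the 3 AKG-treated libraries, 0, 0 and 279 counts in AKG-free libraries 1, 2 and 3, and 0 counts in the 3 control libraries. It had more counts than CCK in the same library but a lower level, 1.18 FPKM against 1.53 FPKM, because 1 count was worth 0.00422 FPKM for MMP19 and 0.00755 FPKM for CCK.

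UPK3A is a uroplakin, a protein of the rigid plaques on the surface of the cells that line the bladder. It is ENSBTAG00000009913, at chr5:115685923-115694504 on the plus strand. UPK3A had 0 counts in the 3 AKG-treated libraries, 0, 0 and 126 counts in AKG-free libraries 1, 2 and 3, and 0 counts in the 3 control libraries. Its level of 1.59 FPKM was the median of the 7 genes.

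TMEM217 and ANKRD66 encode a transmembrane protein and a protein with ankyrin repeats, a fold that binds other proteins, and less is known of either. No usual tissue is given for them here. TMEM217 is ENSBTAG00000002369, at chr23:11125128-11148488 on the minus strand. TMEM217 had 0 counts in the 3 AKG-treated libraries, 0, 185 and 0 counts in AKG-free libraries 1, 2 and 3, and 0 counts in the 3 control libraries. Its 2.56 FPKM was the highest level of the 7 genes and ranked 22nd of 36 in AKG-free library 2.

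ANKRD66 is ENSBTAG00000047009, at chr23:19970227-19984806 on the plus strand. ANKRD66 had 0 counts in the 3 AKG-treated libraries, 0, 0 and 291 counts in AKG-free libraries 1, 2 and 3, and 0 counts in the 3 control libraries. Its 291 counts were the most of the 7 genes and gave 1.72 FPKM, rank 21 of 30 in AKG-free library 3.

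The 7 genes lay within a narrow range of levels, from 1.18 to 2.56 FPKM, and of counts, from 109 to 291. The 95% Poisson intervals were 258.5 to 326.4 counts for ANKRD66 and 89.5 to 131.5 counts for HMGCLL1, and cover counting error only. No gene of the 7 was therefore represented by a handful of reads. Genes with counts in several libraries went lower, down to 4 counts, and 36 of their 222 values above 0 were under 100 counts. Over all 18 genes with counts in 1 library the lowest count was 66, and 4 of the 18 were under 100 counts, none of them among the 7. The listed genes are themselves a selection, so nothing is read from these numbers.

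Sequencing depth could be compared between libraries from the ratio of count to FPKM, which depends on gene length and mapped fragments. In AKG-treated libraries relative depth lay between 0.903 and 1.02, in AKG-free libraries between 1.01 and 1.17, and in controls between 0.793 and 1.10. At the level measured in its own library, AKR1D1 would have 113.3 to 166.7 counts in the other 8 libraries, HMGCLL1 85.3 to 125.4, CCK 138.02 to 192.5, MMP19 189.7 to 264.5, UPK3A 85.7 to 119.5, TMEM217 144.7 to 212.8 and ANKRD66 197.9 to 275.9. The observed count was 0 in all 8 for each gene. A count of 0 allows up to 3 counts, which is 0.0133 FPKM for MMP19 in the most favourable library and 0.0622 FPKM for AKR1D1 in the least favourable. The measured level in the library with counts was at least 28.4-fold higher than this floor in every other library for HMGCLL1, the lowest of the 7 genes. For ANKRD66, the highest, it was at least 65.95-fold higher. These folds leave out the counting error of the measured level itself. Relative depth was 1.11, 1.01 and 1.17 in AKG-free libraries 1, 2 and 3, and each of them was at 0 for the genes found in the others.

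**Figure D2:**
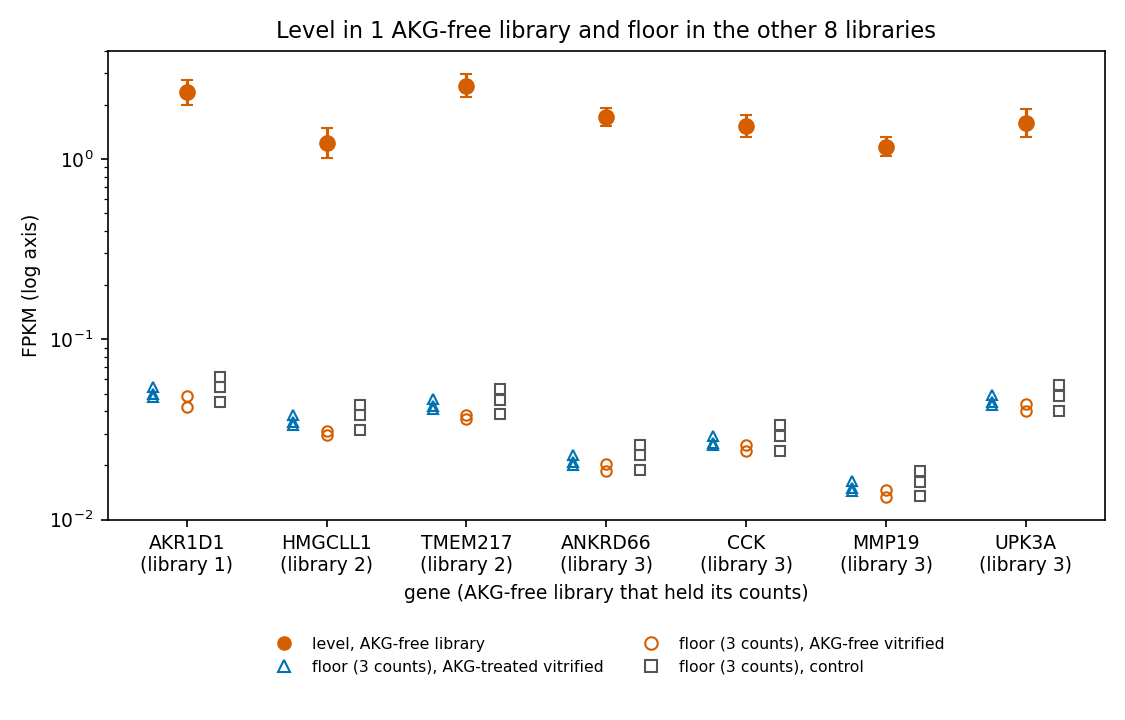
Level of the 7 genes in the AKG-free library that held their counts (filled points, FPKM on a log axis, bars are 95% Poisson intervals of the count) and the floor of 3 counts in each of the other 8 libraries (open symbols by group). Levels of 1.18 to 2.56 FPKM stood above floors of 0.0133 to 0.0622 FPKM.

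Averaged over the group, TMEM217 had 0.855 ± 1.48 FPKM, AKR1D1 0.783 ± 1.36, ANKRD66 0.573 ± 0.992, UPK3A 0.531 ± 0.919, CCK 0.511 ± 0.885, HMGCLL1 0.412 ± 0.714 and MMP19 0.392 ± 0.679 FPKM in AKG-free libraries (SD, n = 3). The SD exceeded the mean in all 7 genes, since 2 of the 3 libraries were at 0. Against the floor of the AKG-treated libraries these means were 11.6-fold (HMGCLL1) to 26.9-fold (ANKRD66) higher. Against the floor of the control libraries they were 10.96-fold (HMGCLL1) to 25.4-fold (ANKRD66) higher. Both sets of folds share the AKG-free libraries. Without AKG-free library 1 for AKR1D1, library 2 for HMGCLL1 and TMEM217, or library 3 for CCK, MMP19, UPK3A and ANKRD66, both groups of each comparison were at 0 and no fold remained. The mean over all 9 libraries was 0.131 to 0.285 FPKM, so 0 of the 7 genes passed a filter at a mean of 0.5 FPKM.

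Just outside the rule were PRSS48 and PYCARD, with counts in 2 libraries and at 0 in the AKG-treated and control libraries. PRSS48, a serine protease, had 136, 142 and 0 counts in AKG-free libraries 1, 2 and 3. PYCARD, an adaptor of inflammasomes, had 0, 276 and 90 counts there. Just inside it, HMGCLL1 had the lowest count of the 7 genes. PRSS48, at 1.22 and 1.39 FPKM where it had counts, lay in the range of the 7 genes, while PYCARD reached 5.77 FPKM in AKG-free library 2.

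The libraries that held most of the 7 genes were also compared with the others by gene number and by makeup. Among the listed genes, those with counts numbered 25 to 27 in AKG-treated libraries. AKG-free libraries 1, 2 and 3 had 25, 36 and 30 such genes, and controls had 23 to 25. Genes with counts in 1 library alone, the 7 genes among them, made up the excess, so it is not a separate trait of these libraries. Without them, AKG-free libraries 1, 2 and 3 had 24, 25 and 24 genes. The calcium-binding protein S100A11 took between 6.28% and 15.97% of the counts of the 47 genes in AKG-treated libraries. Its share was 9.51%, 48.2% and 50.3% in AKG-free libraries 1, 2 and 3 and between 4.59% and 5.95% in controls. The 7 genes together took 0.282%, 0.141% and 0.248% of these counts in AKG-free libraries 1, 2 and 3. That was 158 of 55940, 294 of 207900 and 899 of 362783 counts, so the shares rest on unlike totals. The part that the makeup of AKG-free libraries 2 and 3 has in these detections was not tested.

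**Figure D3:**
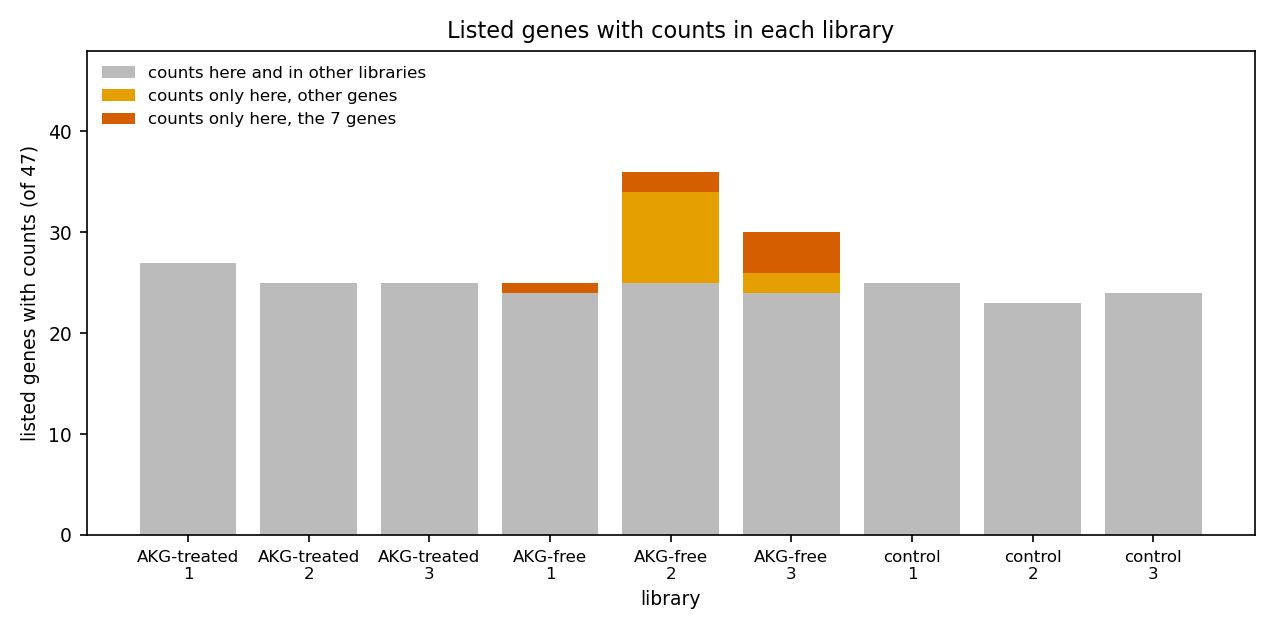
Listed genes with counts above 0 in each library (bars, of 47), divided into genes that also had counts elsewhere, other genes with counts in that library alone and the 7 genes. The grey part was 23 to 27 genes in all 9 libraries, and the coloured parts were found in AKG-free libraries.

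Genes with counts in several libraries were ranked by how closely their log2(FPKM + 1) followed the pattern of the 7 genes, as Pearson's r over the 9 libraries. This is a description, and r over a pattern with 1 high library is set by that library. For AKR1D1 the closest were PRSS48 (r = 0.624), DDIT4L (0.450) and PAG11 (0.432), all 3 of which were higher in AKG-free library 2 than in library 1. For HMGCLL1 and TMEM217 they were PYCARD (0.882), DDIT4L (0.787) and CCL27 (0.711). For CCK, MMP19, UPK3A and ANKRD66 they were PLA2G7 (0.955), DMKN (0.905) and CYP27B1 (0.877). With log2(FPKM + 0.1), 2 of the last 3 genes stayed among the closest 3, and on ranks 0 did. On ranks, all genes that are highest in that library and have no ties get the same r. Ranks therefore cannot order these genes, and nothing is read from the 0. DMKN had 7.62 FPKM in AKG-free library 3 and at most 1.83 FPKM elsewhere, and CYP27B1 had 4.03 FPKM and at most 1.24 FPKM elsewhere.

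The closest of all, PLA2G7, is also the neighbour of ANKRD66 on the chromosome. PLA2G7 (ENSBTAG00000019315, chr23:19924777-19963342, minus strand) encodes a secreted phospholipase that breaks down platelet-activating factor. The genes point away from each other, with 6884 bases between them, and no coding gene lies between them in RefSeq (assembly ARS-UCD2.0, used here for gene order). PLA2G7 had 160, 53 and 199 counts in AKG-treated libraries 1, 2 and 3, then 251, 913 and 31627 counts in AKG-free libraries 1, 2 and 3, and 117, 52 and 132 counts in control libraries 1, 2 and 3. The 1 library with ANKRD66 counts was thus the 1 in which PLA2G7 was highest, at 146.6 FPKM, 30.1 times the next highest library. ANKRD66 had 0.920 counts per 100 counts of PLA2G7 in AKG-free library 3. At that ratio ANKRD66 would have 8.40 counts in AKG-free library 2 and 0.478 to 2.31 counts in the remaining 7 libraries, where its count was 0. Of these only AKG-free library 2 lies above the 3 counts that a count of 0 allows. Whether the reads of both genes have a common source was not tested. The labels do not say whether counting used strand.

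**Figure D4:**
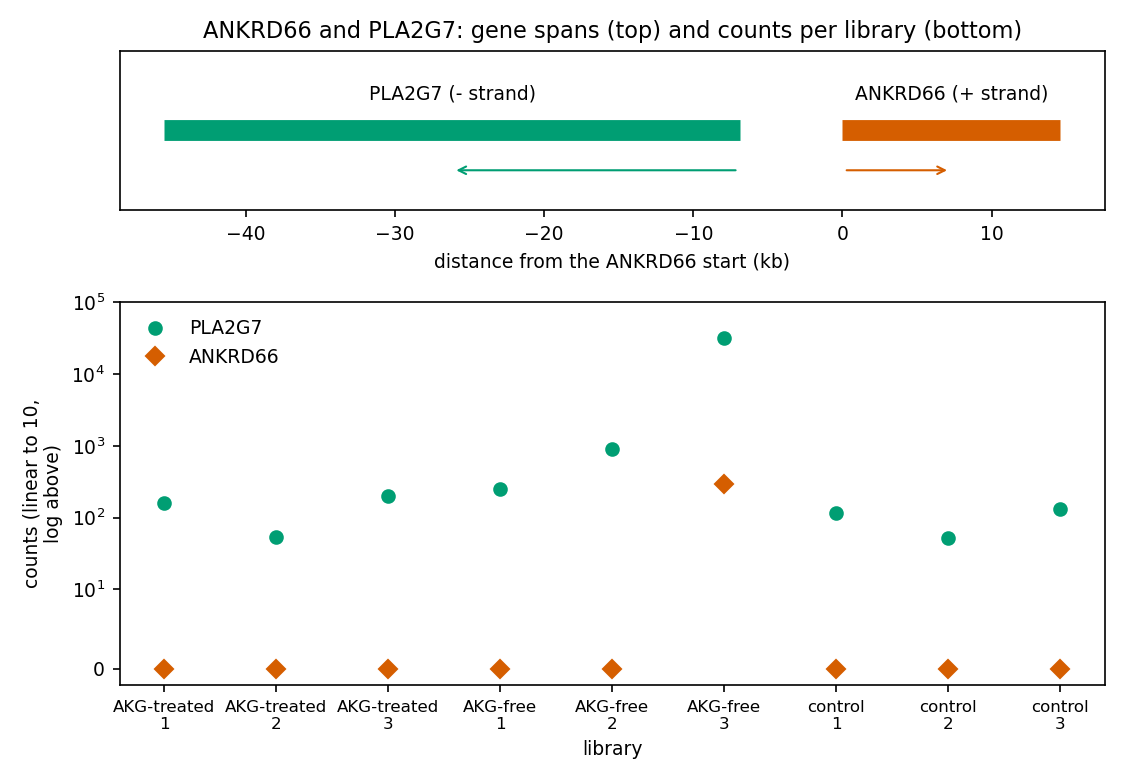
Top, spans of PLA2G7 and ANKRD66 in kilobases from the ANKRD66 start, with arrows for the direction of transcription. Bottom, counts of both genes in the 9 libraries (linear to 10, log above), where AKG-free library 3 held 31627 PLA2G7 counts and all 291 ANKRD66 counts.

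No other gene of the 7 had a listed gene nearby. The closest was CYP27B1, 1.72 megabases from MMP19, and CCK had no other listed gene on its chromosome. Chromosome 23 carried HMGCLL1, TMEM217 and ANKRD66, 3 of the 7 genes. It also carried 6 of the 47 listed genes, which is 12.8%, against 3.24% of the coding genes in RefSeq. This chromosome was named because it carried the most of the 7 genes, so nothing is read from these shares. HMGCLL1 and TMEM217, which shared AKG-free library 2, were 6.14 megabases apart, and ANKRD66 was found in library 3. MMP19 and UPK3A, both on chromosome 5 and both in AKG-free library 3, were 58.3 megabases apart.

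All 7 genes are protein coding and all matched a RefSeq gene by symbol and gene number. The deposited row of CCK carries 2 gene numbers and 2 transcripts, of which the first gene number is the RefSeq CCK gene, and what the second adds to its counts was not tested. Their spans ran from 6281 bases for MMP19 to 197553 bases for HMGCLL1. In RefSeq, HMGCLL1 overlaps the noncoding RNA gene LOC132343593. TMEM217 lies between the coding genes TMEM217B and TBC1D22B, and MMP19 between PYM1 and TMEM198B, each with a coding neighbour within 1 kilobase. Whether reads of these other genes were counted with HMGCLL1, TMEM217 or MMP19 was not tested. The deposited table gave KEGG pathways for 4 of the 7 genes. The 1 pathway named for 2 of them was the general entry for metabolic pathways, for AKR1D1 and HMGCLL1.

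Other genes of the same pathways and tissues were looked for among the listed genes. Of 49 relatives and pathway partners, among them bile acid enzymes, uroplakins, matrix metalloproteinases and their inhibitors, gastrin and cholecystokinin receptors, and ketone body enzymes, 0 were in the table. The 49 included 4 ankyrin repeat genes but not ANKRD22, a further gene of that kind, which is in the table and had 140 counts in AKG-free library 3, the library that held ANKRD66. Of 50 cell type markers, 1 was in the table, the trophoblast gene PAG11. The lists for liver (8 genes), urothelium (5), gut endocrine and neural cells (7), macrophages and stroma (6), testis (5), cumulus cells (4) and blood (3) had 0 listed genes each. These lists are short, and only 47 genes are listed, against 21666 coding genes in RefSeq. A gene that is not listed may still be transcribed in the embryos. INSL3, a gene of testicular Leydig cells, and AIF1 and PLA2G7, which are also known from macrophages, are listed genes that stand outside the marker lists. Apart from PAG11, the marker genes on the lists were not analysed here, so the usual tissues named above could not be checked against their markers. PAG11 had 98, 1336 and 236 counts in AKG-treated libraries 1, 2 and 3, then 3702, 5456 and 2223 counts in AKG-free libraries 1, 2 and 3, and 132, 0 and 104 counts in control libraries 1, 2 and 3.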

How the data were processed

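The tools named in the submitters' processing notes are cutadapt 1.9, HISAT2 2.0.4, StringTie 1.3.4d and edgeR. Their roles and settings and the genome build are not stated there. The authors deposited FPKM for 47 genes in 9 tables of single libraries, and a table of the series with the same FPKM and, per the file headers, a count per gene and library. The FPKM of both kinds of table were identical.

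A gene was taken as detected at a count above 0. Relative depth was the median ratio of count to FPKM, scaled to a mean of 1, over the 13 genes whose count reached 100 in every library. The largest deviation of a gene from it was 0.788%. This step was also run on simulated data with known depth. There the FPKM was computed from the count and that depth, so recovery was fixed in advance and nothing is drawn from it. Absolute depth is unknown. Floors of 3 counts per library were converted to FPKM, and 95% intervals are exact Poisson intervals. Both cover counting error only, since without molecular identifiers several reads can stem from 1 molecule. No test was run, because the counts of all 9 libraries chose the genes. The genes and lists were chosen with earlier results of these data known. All 7 genes were named, with the 3 closest in pattern per library. Counts of at least 3 or 10, 0.1 FPKM, counts scaled to the shallowest library, other filters and each library left out were tried. Sequences were not used here. Python 3.11.15, numpy 2.4.6, pandas 2.3.3, scipy 1.17.1 and matplotlib 3.10.9 were used.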

Additional observations from a re-analysis of the deposited data

How the results depend on the processing

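All 7 genes were counted in exactly 1 library with at least 3 counts, at least 10 counts, at least 0.1 FPKM or counts scaled to the shallowest library, and so were 18 of the 47 listed genes. None of these settings could remove a gene. The other 8 libraries were at 0 by the rule, and the lowest values of the 18 were 66 counts and 1.06 FPKM. Leaving out each library in turn gave 3 to 7 of the 7 genes, with 3 left without AKG-free library 3. It gave 9 to 18 of the listed genes, with 9 without AKG-free library 2. These were not all among the 18 above. PRSS48 and PYCARD, with counts in 2 libraries, joined when 1 of those libraries was left out. The 18 without AKG-free library 1 thus held PRSS48 and not AKR1D1. A filter at a mean of 0.1 FPKM over the 9 libraries kept 7 of the 7 genes, where a mean of 0.5 or 1 FPKM kept 0. The difference follows from the level of the threshold, which lies above or below 0.131 to 0.285 FPKM. Relative depth from the 17 genes with at least 20 counts differed by less than the deviation between genes in all 9 libraries. No test was run on these genes, so none was run with the replicate number as a block. The planned comparison of promoter CpG content was not run. By counting error alone, the floors of the 0 counts reached at most 0.0622 FPKM for these genes. These floors do not cover transcripts lost before amplification, so a 0 does not show that the embryo lacked the transcript. With 3 libraries per group, what a detection in 1 library can show is limited.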

Other observations

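The remaining genes with a symbol and counts in 1 library were INSL3, FAM237B and ANKRD22, named after their values were seen. INSL3, the insulin-like peptide of testicular Leydig cells that guides testis descent, had 66 counts and 1.37 FPKM in AKG-free library 2. FAM237B had 83 counts and 3.18 FPKM in the same library. ANKRD22 had 140 counts and 1.06 FPKM in AKG-free library 3. All 3 had 0 counts in the other 8 libraries, as the rule requires.

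Of the 8 genes without a symbol and with counts in 1 library, 7 were in AKG-free library 2 and 1 in library 3. The 1 in library 3, ENSBTAG00000052298, which the table annotates with GABA-A receptor activity, had 3434 counts and 40.2 FPKM, the highest level of the 18 genes with counts in 1 library. It was singled out after its values were seen. Of the 7 in library 2, a pair of zinc-binding genes by the table's annotation lay 175117 bases apart on chromosome 29, with 171 and 197 counts.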
